A study of Homo sapiens with 15 samples.

Results

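Titin, the giant filament that spans the sarcomere from its border to its centre, and 8 scaffold genes of the sarcomere were followed through cardiac differentiation of human embryonic stem cells. The 9 genes were TTN, MYBPC3, LDB3, SMPX, NEBL, MYOM1, TCAP, CSRP3 and MYOZ2, out of 60605 genes in the count table. They were chosen by their order of onset and their differences between culture arms in these same libraries, so their values are given as a description and carry no test. All 9 were among the 21206 genes with an FPKM (read counts per kilobase of exon, scaled to the total count of the library) of at least 1 in at least 1 library.

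RNA was measured in bulk in 15 libraries of the wild-type human embryonic stem cell line H1. All cells received CHIR99021, an activator of WNT signalling, on day 0 and insulin on day 1 in the basal DF medium, and the libraries of days 0, 1 and 2 preceded all later groups. NP-ctrl cells then stayed in place with no further inducer, NP-IWP2 cells were left undisturbed and given IWP2, which blocks the secretion of WNT ligands, from day 2, and passaged cells were detached with EDTA on day 2 and replated in new wells at a lower density, without IWP2. Each of these 3 arms had 1 library on each of days 3, 5, 7 and 10, which allowed passaged cells to be compared with static culture and with WNT inhibition. The study states that a ROCK inhibitor was used in all differentiation experiments after its first tests of passaging, while the labels of these libraries do not mention it. In these libraries detachment, density and any such inhibitor cannot be told apart. In separate experiments the study reports more cardiac cells after replating the same number of cells, but not after EDTA without dislodging them. It also reports that most passaged cells became cardiac with or without the inhibitor. H1 is a single line, there was 1 library for each arm and day, and nothing in the labels describes separate cultures, so intervals of single libraries cover counting error only, and amplified reads without molecular identifiers are not independent molecules. In bulk RNA, fewer muscle cells and less RNA in each muscle cell cannot be told apart.

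The sarcomere is bordered by Z-discs, which anchor the actin filaments, and is held together at its centre by the M-band. Titin runs from the Z-disc to the M-band, where myomesin (MYOM1) links it to myosin, and cardiac myosin-binding protein C (MYBPC3) sits on the thick filament between them. At the Z-disc, telethonin (TCAP) caps the end of titin, cypher (LDB3) and myozenin 2 (MYOZ2) bind alpha-actinin, nebulette (NEBL) reaches from the Z-disc along the thin filament, and muscle LIM protein (CSRP3) is a small adaptor linked to mechanical sensing. SMPX is a small muscle protein of the cytoskeleton beside the Z-disc. The set therefore holds Z-disc genes together with a thick filament and an M-band gene.

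Depth lay between 13254723 and 20250115 counts per library. The mitochondrial share of the counts was 1.53% in the passaged library of day 3, 10.3% in that of day 10 and 3.71% to 6.14% in the other libraries, and its part in the results below was not tested. On day 0, when the label is that of embryonic stem cells, the pluripotency gene POU5F1 stood at 625 FPKM, and the 4 pluripotency markers POU5F1, NANOG, SOX2 and LIN28A summed to 1217 FPKM. By day 10 their sum was 13.9 to 23.4 FPKM, and the 6 cardiomyocyte markers ACTN2, TNNT2, TNNI1, MYL7, ACTC1 and MYH6 summed to 653 FPKM in NP-ctrl, 2063 FPKM in NP-IWP2 cells and 5306 FPKM in passaged cells.

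Where genes of 1 structure have similar time courses, the sequence before their start sites is of interest, so the 250 bases before the start are shown for the 6 genes that held a match to a MEF2 or CArG consensus. MEF2 and SRF, the factor that binds CArG elements, are transcription factors of muscle genes. RefSeq (GRCh38.p14) gave windows for 7 of the 9 genes, from 250 bases before to 50 bases after the start, with 2 start sites for LDB3, 5 for NEBL and 1 for each of the others. TCAP and CSRP3 had no entry. The RefSeq start of TTN lies inside the span that the count table gives the gene. Each sequence reads 5′ to 3′ on the strand of the gene, and capitals mark the MEF2 match in TTN, MYBPC3, SMPX and MYOZ2 and the CArG match in LDB3 (upstream start) and MYOM1.
TTN, chr2:178807424-178807673, minus strand: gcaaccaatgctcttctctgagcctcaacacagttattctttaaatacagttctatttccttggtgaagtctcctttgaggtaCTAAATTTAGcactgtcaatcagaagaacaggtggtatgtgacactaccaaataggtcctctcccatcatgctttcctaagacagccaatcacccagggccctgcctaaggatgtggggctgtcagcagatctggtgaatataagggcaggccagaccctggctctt
MYBPC3, chr11:47352703-47352952, minus strand: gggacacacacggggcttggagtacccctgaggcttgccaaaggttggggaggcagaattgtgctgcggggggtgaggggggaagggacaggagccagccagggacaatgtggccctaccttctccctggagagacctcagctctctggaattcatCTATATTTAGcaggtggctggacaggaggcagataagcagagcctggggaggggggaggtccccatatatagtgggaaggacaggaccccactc
SMPX, chrX:21758117-21758366, minus strand: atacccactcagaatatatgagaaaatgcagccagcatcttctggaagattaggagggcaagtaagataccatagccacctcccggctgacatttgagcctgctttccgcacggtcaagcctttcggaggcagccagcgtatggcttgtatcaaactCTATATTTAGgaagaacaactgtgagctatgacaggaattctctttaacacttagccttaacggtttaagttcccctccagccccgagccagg
MYOZ2, chr4:119135582-119135831, plus strand: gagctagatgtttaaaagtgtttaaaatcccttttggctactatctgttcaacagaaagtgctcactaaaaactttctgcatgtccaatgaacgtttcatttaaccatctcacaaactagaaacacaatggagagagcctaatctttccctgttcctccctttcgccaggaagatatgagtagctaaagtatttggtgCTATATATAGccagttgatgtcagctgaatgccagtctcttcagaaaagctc
LDB3, chr10:86668261-86668510, plus strand: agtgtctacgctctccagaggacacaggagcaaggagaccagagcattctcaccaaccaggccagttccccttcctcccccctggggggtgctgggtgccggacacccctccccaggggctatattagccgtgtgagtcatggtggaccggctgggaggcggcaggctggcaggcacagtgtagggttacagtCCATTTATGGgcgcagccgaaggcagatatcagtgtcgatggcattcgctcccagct
MYOM1, chr18:3219969-3220218, minus strand: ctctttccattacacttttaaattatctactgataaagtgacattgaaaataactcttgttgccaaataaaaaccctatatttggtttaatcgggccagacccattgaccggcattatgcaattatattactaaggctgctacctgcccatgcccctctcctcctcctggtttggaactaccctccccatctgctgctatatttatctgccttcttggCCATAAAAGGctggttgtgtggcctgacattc

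Counted from the start site, the MEF2 match began at position -167 in TTN, -94 in MYBPC3, -93 in SMPX and -52 in MYOZ2. The consensus was present in 4 of the 12 windows of the 7 matched genes and in 2.99% of all 35116 RefSeq promoter windows. CArG was present in 3 of 12, beginning at -57 from the upstream start in LDB3, whose other window holds the same match, and at -32 in MYOM1, beside 1.29% of all windows. AGATAA, the GATA motif, was found in 3 of 12, in MYBPC3, NEBL and MYOM1 (10.3% of all windows), CATTCC, the MCAT motif, in 1 of 12, in TTN (14.0%), and TATAAA in 0 of 12 (11.5%). CANNTG, the E-box, was found in 9 of 12 windows, which belong to 6 genes, and in 68.7% of all windows, and in MYBPC3 it directly followed the MEF2 match without overlapping it. Both strands were searched. A match describes letters in a window and was not linked to binding in these cells.

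TTN (ENSG00000155657) lies at chr2:178525989-178830802 on the minus strand and was counted over 118976 exonic bases. Its FPKM was 0.14, 0.17 and 0.26 on days 0, 1 and 2. On days 3, 5, 7 and 10 it was 0.70, 2.49, 4.37 and 6.89 in NP-ctrl, 1.31, 5.63, 13.1 and 25.7 in NP-IWP2 cells, and 2.07, 5.86, 21.4 and 32.0 in passaged cells. TTN was thus detected in every library, lowest on day 0, and on every day from day 3 NP-ctrl was the lowest arm and passaged the highest. NP-IWP2 and passaged cells were close on day 5, at a ratio of 1.04 (exact 95% interval of counting error 1.01 to 1.07), and the ratio of passaged to NP-IWP2 was 1.63 (1.61 to 1.66) on day 7 and 1.24 (1.23 to 1.26) on day 10. The antisense gene TTN-AS1 shares 253975 bases with TTN on the opposite strand and had at most 685 counts, against 57995 counts of TTN in the passaged library of day 10. On day 0 the 2 genes were nearer, with 124 counts of TTN-AS1 and 273 counts of TTN, so the early TTN levels carry this limit most. Strand use in counting was not stated, so reads of such pairs cannot be told apart.

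MYOM1 (ENSG00000101605, chr18:3066807-3219968, minus strand), the M-band partner of titin, began late. Its FPKM was between 0.13 and 0.60 in the 6 libraries up to day 3, and the 3 libraries of day 3 held 52 (NP-ctrl), 52 (NP-IWP2) and 36 (passaged) counts. On days 5, 7 and 10 it was 0.34, 4.50 and 11.4 in NP-ctrl, 0.35, 28.2 and 42.3 in NP-IWP2 cells, and 1.9, 80.3 and 126 in passaged cells. Both static arms on day 5 were therefore still within the range of the early libraries, while the passaged library was above it. Between days 5 and 7 the level was 80.1-fold higher (56.6 to 117) in NP-IWP2 and 42.2-fold higher (36.5 to 49.1) in passaged cells. On day 10 the passaged library stood 2.97-fold (2.87 to 3.08) above NP-IWP2 and 11.1-fold (10.4 to 11.8) above NP-ctrl.

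MYBPC3 (ENSG00000134571, chr11:47331406-47352702, minus strand) had 0 or 1 count in each of the 6 libraries up to day 3. From day 5 to days 7 and 10 it stood at 0.04, 21.3 and 33.2 FPKM in NP-ctrl, 0.65, 95.8 and 119 FPKM in NP-IWP2 cells, and 12.02, 149 and 240.3 FPKM in passaged cells. The day 5 libraries held 3, 39 and 784 counts of the gene in NP-ctrl, in NP-IWP2 and after passaging. The arms were thus far apart on day 5, with passaged cells 18.6-fold (13.5 to 26.4) above NP-IWP2 and, taking 3 counts as the floor, at least 268-fold above NP-ctrl. By day 7 the ratio of passaged to NP-IWP2 was 1.56 (1.51 to 1.61), and on day 10 it was 2.02 (1.96 to 2.07). MYBPC3 had the highest FPKM of the 9 genes in each arm on day 10.

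**Figure D1:**
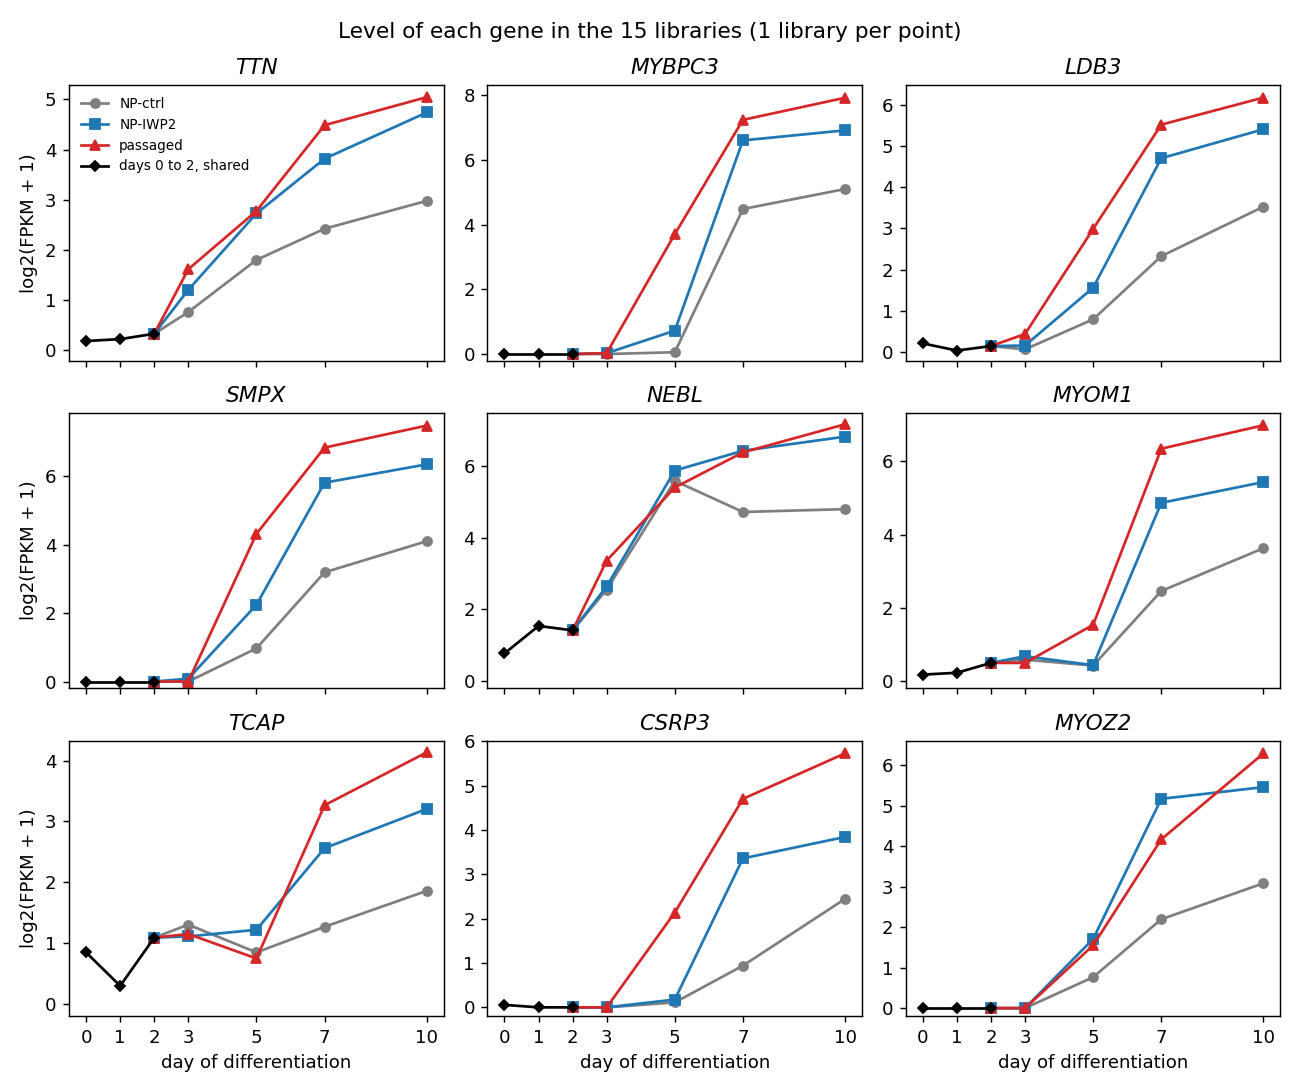
Level of each of the 9 genes as log2(FPKM + 1) against the day of differentiation, 1 library per point, with days 0 to 2 shared (black diamonds) and the arms NP-ctrl (grey circles), NP-IWP2 (blue squares) and passaged (red triangles). On day 10 the order passaged, NP-IWP2, NP-ctrl holds in all 9 panels, and on day 7 MYOZ2 is higher in NP-IWP2 (35.0 FPKM) than in passaged cells (17.0 FPKM).

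TCAP (ENSG00000173991, chr17:39665349-39666554, plus strand), the cap of titin, had the fewest counts of the set, 4 to 242 per library, so its intervals are wide. Its FPKM was 0.80, 0.23 and 1.13 on days 0, 1 and 2. On days 3, 5, 7 and 10 it was 1.47, 0.80, 1.41 and 2.63 in NP-ctrl, 1.16, 1.33, 4.90 and 8.22 in NP-IWP2 cells, and 1.22, 0.68, 8.62 and 16.6 in passaged cells. The arms did not separate within counting error on day 5, where the ratio of passaged to NP-IWP2 was 0.515 (0.212 to 1.18). They separated on day 7, when passaged cells were 6.09-fold (3.70 to 10.6) and NP-IWP2 cells 3.46-fold (2.05 to 6.15) above NP-ctrl, and the ratio of passaged to NP-IWP2 on day 10 was 2.02 (1.62 to 2.52).

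LDB3 (ENSG00000122367, chr10:86668507-86736072, plus strand) encodes the PDZ and LIM domain protein cypher. It had 4 to 33 counts per library up to day 3, or 0.03 to 0.36 FPKM. On days 5, 7 and 10 its FPKM was 0.74, 4.02 and 10.5 in NP-ctrl, 1.96, 25.02 and 41.4 in NP-IWP2 cells, and 6.94, 44.8 and 71.1 in passaged cells. Passaged cells were highest and NP-ctrl lowest on each of these days. Passaged relative to NP-IWP2, the ratio was 3.53 (3.00 to 4.18) on day 5, 1.79 (1.70 to 1.88) on day 7 and 1.72 (1.65 to 1.79) on day 10.

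SMPX (ENSG00000091482, chrX:21705978-21758116, minus strand) followed LDB3 closely, with a Pearson correlation of 0.995 between their log2(FPKM + 1) values over the 15 libraries, the highest of the 36 pairs. It had 1 count in NP-IWP2 on day 3 and 0 counts in the other 5 libraries up to that day. On days 5, 7 and 10 its FPKM was 0.96, 8.15 and 16.2 in NP-ctrl, 3.74, 55.4 and 80.7 in NP-IWP2 cells, and 18.9, 114 and 178 in passaged cells. The arms kept the order passaged, NP-IWP2, NP-ctrl on all 3 days. Passaged cells were 5.07-fold (3.92 to 6.64) above NP-IWP2 on day 5, 2.05-fold (1.91 to 2.21) on day 7 and 2.21-fold (2.08 to 2.34) on day 10. The libraries are shared by all such correlations, which therefore describe similar time courses and no more.

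CSRP3 (ENSG00000129170, chr11:19182030-19210571, minus strand) was at 0 or 1 count in all 6 libraries up to day 3. On day 5 the passaged library held 85 counts of it, NP-IWP2 held 3 and NP-ctrl held 2, and the FPKM was 3.41, 0.13 and 0.08 in the same order. On days 7 and 10 the FPKM was 0.92 and 4.46 in NP-ctrl, 9.28 and 13.4 in NP-IWP2 cells, and 25.1 and 52.2 in passaged cells. On day 5 the passaged library was at least 26.2-fold above NP-IWP2 and at least 29.1-fold above NP-ctrl, with 3 counts as the floor. CSRP3 also had the widest gap between passaged and NP-IWP2 cells among the 9 genes on day 10, at 3.90-fold (3.46 to 4.40).

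MYOZ2 (ENSG00000172399, chr4:119135832-119187789, plus strand) had 0 counts in all 6 libraries up to day 3. On days 5, 7 and 10 its FPKM was 0.70, 3.58 and 7.49 in NP-ctrl, 2.27, 35.0 and 43.1 in NP-IWP2 cells, and 1.93, 17.0 and 77.5 in passaged cells. Here NP-IWP2 was highest on day 7 and passaged highest on day 10, while the 2 arms did not separate on day 5. The ratio of passaged to NP-IWP2 was 0.847 (0.611 to 1.17) on day 5, 0.485 (0.442 to 0.533) on day 7 and 1.80 (1.70 to 1.91) on day 10. Between days 7 and 10 the level was 4.56-fold higher (4.18 to 4.97) in passaged cells and 1.23-fold higher (1.15 to 1.32) in NP-IWP2.

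NEBL (ENSG00000078114, chr10:20779973-21293011, minus strand) was among the earliest of the set. Its FPKM was 0.71, 1.91 and 1.67 on days 0, 1 and 2. On days 3, 5, 7 and 10 it was 4.87, 47.0, 25.3 and 26.8 in NP-ctrl, 5.24, 57.5, 84.9 and 112 in NP-IWP2 cells, and 9.27, 41.2, 82.2 and 142 in passaged cells. On day 5 it exceeded 40 FPKM in all 3 arms, when each of the other 8 genes was below 20 FPKM, and passaged cells were then the lowest arm, at 0.716 times (0.699 to 0.734) the level of NP-IWP2 and 0.877 times (0.855 to 0.899) that of NP-ctrl. NP-ctrl was the only arm in which the level on day 7 was below that of day 5, at 0.538 times (0.522 to 0.555). On day 10 passaged cells were 1.27-fold (1.25 to 1.29) above NP-IWP2 and 5.31-fold (5.17 to 5.45) above NP-ctrl. RefSeq gives start sites of NEBL far apart, and the table of counts does not separate its isoforms.

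To order the genes in time, onset was taken as the first sampled day on which a gene reached 10% of its own highest FPKM and stayed there on the later days of the arm. The highest value of each gene was that of passaged cells on day 10, so the scale is set by that library. By day 5 onset had come for NEBL alone in NP-ctrl, for NEBL and TTN in NP-IWP2 cells, and for NEBL, TTN and SMPX in passaged cells. By day 7 it had come for 2 of 9 genes in NP-ctrl (NEBL and TTN) and for 9 of 9 in both other arms. MYBPC3, LDB3 and TCAP reached it on day 10 in NP-ctrl, and SMPX, MYOM1, CSRP3 and MYOZ2 did not reach it there by day 10. SMPX in passaged cells lay just inside the limit on day 5 (10.6%) and LDB3 just outside it (9.77%), and MYOZ2 was at 9.66% in NP-ctrl on day 10. Sampling skipped days 4, 6, 8 and 9, so an onset day is the day of a library and not the day of the change.

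**Figure D2:**
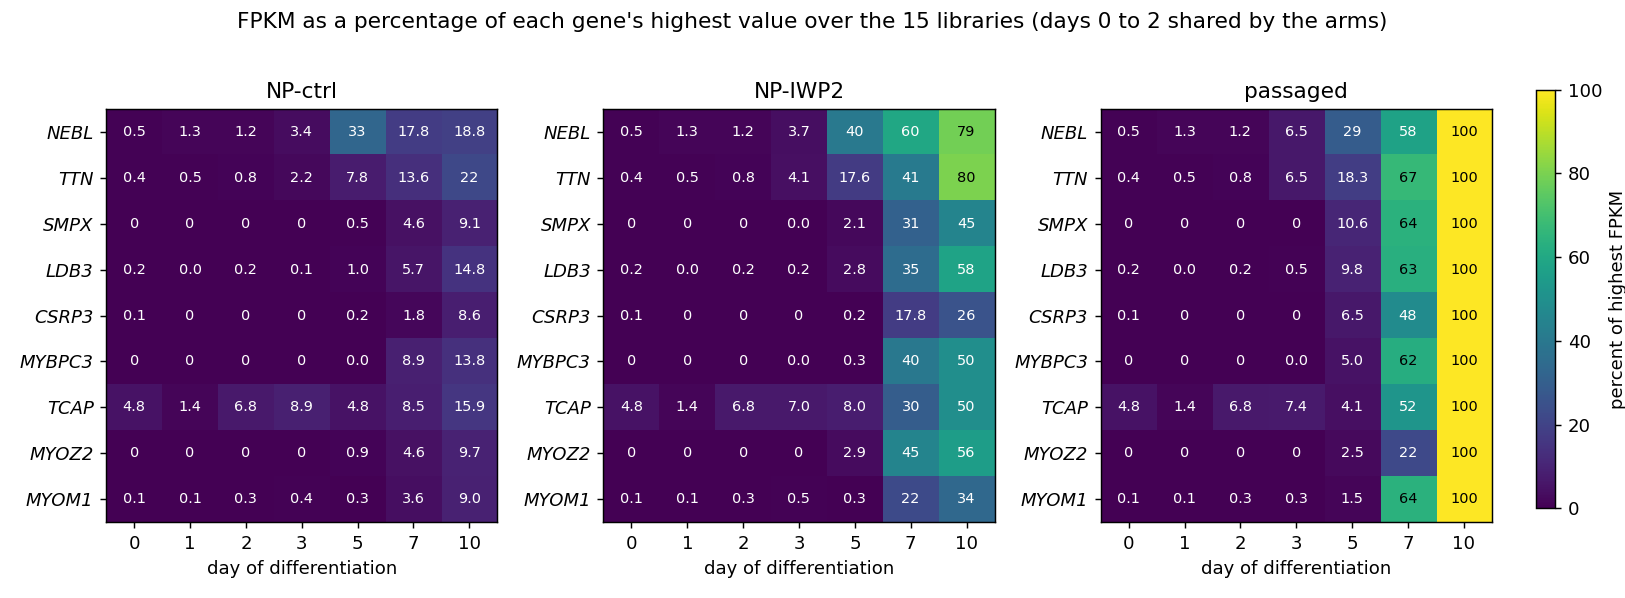
FPKM of each gene as a percentage of its own highest value over the 15 libraries, for days 0 to 10 (columns) in each arm (panels), with genes in rows and colour running from 0% to 100%. NEBL alone passes 10% by day 5 in all 3 panels, all 9 genes pass it by day 7 in NP-IWP2 and passaged cells, and the highest value in NP-ctrl is 33.0% (NEBL on day 5).

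The arms were then compared day by day. A gene was counted as higher when log2(FPKM + 1) differed by at least 1 between the 2 libraries, and since arm differences were used to choose the 9 genes, the counts describe them only. Passaged cells were higher than NP-ctrl for 0 of 9 genes on day 3 (5.02% of all 21206 genes), for 5 on day 5 (3.74%), for 9 on day 7 (4.33%) and for 9 on day 10 (5.67%). NP-IWP2 was higher than NP-ctrl, whose libraries both comparisons share, for 0 of 9 on day 3 (3.29%), for 1 on day 5 (1.42%), for 9 on day 7 (2.99%) and for 9 on day 10 (3.71%). Passaged cells were higher than NP-IWP2 for 0 of 9 on day 3 (3.65%), for 5 on day 5 (3.49%), for 3 on day 7 (2.31%) and for 4 on day 10 (3.07%), and on day 7 MYOZ2 was lower by the same measure, as were 928 of all 21206 genes. MYOZ2 on day 7 (-1.001) and MYBPC3 on day 10 (1.006) lay close to the limit. The gene higher in NP-IWP2 on day 5 was SMPX. Those higher in passaged than in NP-IWP2 cells were SMPX, MYOM1 and CSRP3 on day 7, joined by MYBPC3 on day 10.

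The 5 genes of day 5 in passaged cells were MYBPC3, LDB3, SMPX, MYOM1 and CSRP3, against both static arms. NEBL, TCAP and MYOZ2 did not stand higher than NP-IWP2 that day, and TTN differed from it by 1.04-fold. The median difference of the 9 genes on day 10, on the log2(FPKM + 1) scale, was 2.82 for passaged against NP-ctrl, 1.81 for NP-IWP2 against NP-ctrl and 0.93 for passaged against NP-IWP2, beside -0.09, 0 and -0.06 over all genes. On this scale the change of low genes is understated.

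**Figure D3:**
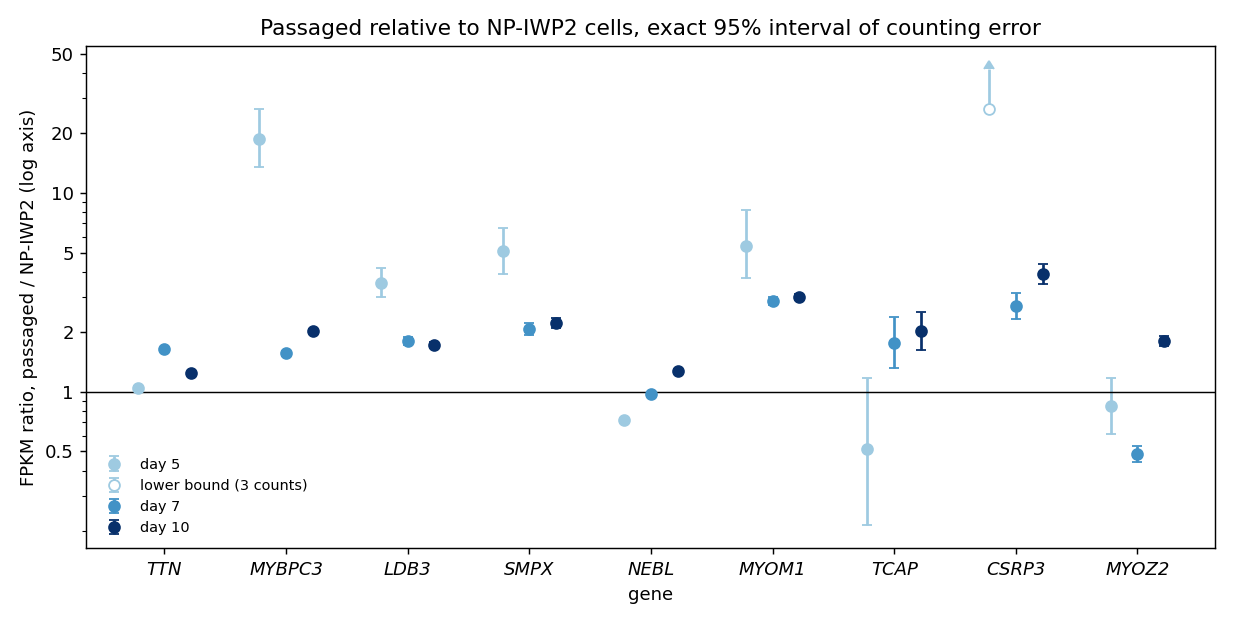
Ratio of the FPKM in passaged cells to that in NP-IWP2 cells on a log axis for each gene on days 5, 7 and 10, with exact 95% intervals of counting error and an open symbol with an arrow where the value is a lower bound set by 3 counts. On day 5 the ratios run from 0.515 (TCAP) to at least 26.2 (CSRP3), and on day 10 all 9 lie between 1.24 (TTN) and 3.90 (CSRP3).

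On day 10 the genes were ordered by FPKM, a level scaled by exonic length. The library kit named is one for long reads and the tools are for short reads, so an order between genes as unlike in length as TTN (118976 exonic bases) and TCAP (960 exonic bases) carries the doubt of that scaling. Passaged cells had MYBPC3 highest, then SMPX, NEBL, MYOM1, MYOZ2, LDB3, CSRP3 and TTN, with TCAP lowest at 16.6 FPKM, and no neighbours in that order had overlapping counting intervals. In NP-IWP2 cells the counting intervals of MYOZ2 (43.1 FPKM), MYOM1 (42.3 FPKM) and LDB3 (41.4 FPKM) overlapped, and such overlap is not a test of a difference. In NP-ctrl cells the intervals also overlapped for MYOM1 (11.4 FPKM) beside LDB3 (10.5 FPKM) and for MYOZ2 (7.49 FPKM) beside TTN (6.89 FPKM). Those of CSRP3 (4.46 FPKM, 3.62 to 5.43) and TCAP (2.63 FPKM, 1.82 to 3.68) overlapped only at their ends. CSRP3 stood below TTN in both static arms and above it in passaged cells.

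Over days 3 to 10 together, arm differences were fitted to the counts with edgeR with day as a block, in which the 4 days of an arm serve as its only repetition. The fitted log2 difference between passaged and NP-ctrl cells was highest for CSRP3 at 4.49 (SE 0.56), MYBPC3 at 4.18 (SE 0.72), SMPX at 3.93 (SE 0.30) and LDB3 at 3.22 (SE 0.24). It was 2.73 (SE 0.62) for MYOM1, 2.60 (SE 0.45) for MYOZ2, 1.87 (SE 0.25) for TTN, 1.39 (SE 0.57) for TCAP and 1.20 (SE 0.40) for NEBL. This order moved with the days fitted. Without day 5 MYBPC3 was at 2.97, below SMPX (3.73), LDB3 (3.22) and MYOZ2 (3.04), and it was at 4.93 without day 7 and 4.90 without day 10. Leaving out day 10 gave 5.28 for CSRP3, 1.92 for MYOZ2 and 0.78 for TCAP, and leaving out day 3 gave 3.55 for MYOM1 and 2.07 for TCAP. With limma on log2(FPKM + 1), SMPX had the highest value (2.59). All 9 lay above 0 in the edgeR fit, with a median of 2.73 beside -0.0025 over all genes tested. Across all genes 1.64% were higher and 2.76% lower in passaged cells at an adjusted p under 0.05.

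Against NP-ctrl, NP-IWP2 cells had fitted differences from 0.85 (SE 0.56) for TCAP to 2.62 (SE 0.44) for MYOZ2, with a median of 1.97, and CSRP3, at 2.15, moved to 1.36 without day 7 and 2.76 without day 10. Between passaged and NP-IWP2 cells they ran from -0.02 (SE 0.40) for MYOZ2 to 2.34 (SE 0.49) for CSRP3, with a median of 1.25, and 8 of 9 were above 0. MYBPC3 (2.10, SE 0.67), MYOM1 (1.52, SE 0.55), SMPX (1.51, SE 0.26) and LDB3 (1.25, SE 0.22) followed CSRP3, while TTN (0.52, SE 0.24), TCAP (0.54, SE 0.53) and NEBL (0.27, SE 0.39) were nearer to 0. Without day 5 MYBPC3 was at 0.90, below MYOM1 (1.30), SMPX (1.13) and LDB3 (1.05), and without day 7 MYBPC3 was at 2.85 and CSRP3 at 2.99. The value of MYOZ2 took the opposite sign without day 5 (0.04) and without day 7 (0.51), and was -0.65 without day 10. The genes called over all were 0.00943% higher and 0.00943% lower for NP-IWP2 against NP-ctrl, and 0.415% higher and 0.915% lower for passaged against NP-IWP2.

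Other sarcomere genes were then tested, from lists put together by function, with earlier results of these data known. They held 74 genes, of which 62 passed the filter and 12 did not. Passaged cells differed from NP-ctrl in 19 of the 62, with 17 higher and 2 lower (edgeR quasi-likelihood test, Benjamini-Hochberg adjusted p under 0.05). The median fitted difference of the 62 was 0.87, beside -0.0025 over all genes. Over all genes 1.64% were higher and 2.76% lower. Earlier results were known when the lists were made, and a gene could pass the filter through 1 arm alone. The shares therefore describe the list and are no test of it.

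Among partners of the Z-disc, 9 of 19 tested genes were higher in passaged than in NP-ctrl cells and 0 were lower. SORBS2, an adaptor that links actin to signalling proteins at the Z-disc, had a fitted log2 difference of 3.30 (SE 0.36, adjusted p = 0.000877) and was at 6.14 FPKM in NP-ctrl, 17.6 FPKM in NP-IWP2 cells and 89.8 FPKM in passaged cells on day 10. XIRP1, an actin-binding repeat protein of the heart, differed by 3.12 (SE 0.34, adjusted p = 0.000877), with 4.89, 18.5 and 45.5 FPKM. The most abundant of this list on day 10 in passaged cells were HSPB7, a small heat shock protein (222 FPKM, fitted 2.32, adjusted p = 0.0153), ANKRD1, an ankyrin repeat protein that binds titin (123 FPKM, fitted 2.83, adjusted p = 0.0726), and NEXN, an actin-binding Z-disc protein (91.0 FPKM, fitted 1.55, adjusted p = 0.0346). ANKRD1 was higher on day 7 (483 FPKM in passaged cells, 108 FPKM in NP-IWP2 and 21.5 FPKM in NP-ctrl) than on day 10.

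Of the M-band and titin kinase partners, 3 of 11 tested genes were higher. UNC45B, a chaperone of myosin, differed by 3.22 (SE 0.32, adjusted p = 0.000728) and stood at 9.01, 42.6 and 81.2 FPKM in NP-ctrl, in NP-IWP2 and after passaging on day 10. SMYD1, a muscle methyltransferase, differed by 3.18 (SE 0.48, adjusted p = 0.00551) and reached 168 FPKM in passaged cells, against 10.9 FPKM in NP-ctrl. The third was ALPK3, a kinase-like protein of the M-band. CKM, the muscle creatine kinase, was the most abundant of the list in passaged cells on day 10 (189 FPKM), with a fitted difference of 2.03 (SE 1.08) that did not pass (adjusted p = 0.35).

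Thin filament caps and assembly genes gave 2 higher of 7 tested. KLHL41, a kelch protein known to stabilise nebulin, differed by 3.23 (SE 0.64, adjusted p = 0.0189), and FHOD3, a cardiac formin that assembles actin, by 2.19 (SE 0.45, adjusted p = 0.0212). KLHL41 stood at 5.91 FPKM in NP-ctrl, 60.6 FPKM in NP-IWP2 cells and 109 FPKM in passaged cells on day 10, and FHOD3 at 4.33, 12.8 and 38.4 FPKM. KLHL41 was the gene that DESeq2 did not call among the 19 (2.00, adjusted p = 0.186). TMOD1, which caps the pointed end of actin filaments, was at 68.7 FPKM in passaged cells on day 10 but had a fitted difference near 0 (adjusted p = 1).

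Regulators of splicing and transcription gave 3 higher of 10 tested. MEF2C, a muscle transcription factor of the MEF2 family, differed by 2.90 (SE 0.35, adjusted p = 0.0015) and was at 3.89, 20.9 and 40.9 FPKM in NP-ctrl, in NP-IWP2 and after passaging on day 10. MYOCD, a coactivator of SRF, differed by 2.36 (SE 0.49, adjusted p = 0.0233) and was highest in passaged cells on day 7 (86.3 FPKM, with 27.4 FPKM in NP-IWP2 and 5.28 FPKM in NP-ctrl). RBM20, which controls the splicing of titin, was the third, with 0.76 (SE 0.18, adjusted p = 0.04). RBM24, another muscle splicing factor, was the most abundant of the list in passaged cells on day 10, at 95.8 FPKM and 16.0 FPKM in NP-ctrl (fitted 1.35, adjusted p = 0.125), and MEF2A was close in passaged (56.3 FPKM) and NP-IWP2 cells (55.8 FPKM), at a ratio of 1.01 (0.974 to 1.05).

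The number of calls moved with the days in the fit. Without day 7 the passaged cells differed from NP-ctrl in 5 of 62 genes, without day 10 in 8, without day 5 in 12 and without day 3 in 35. Over all genes the calls went likewise from 348 higher and 585 lower to 45 higher and 88 lower without day 7. The 5 genes called in each of the 4 fits without a day were SORBS2, XIRP1, SYNPO2L, UNC45B and MEF2C. By limma on log2(FPKM + 1), which called PALLD and PDLIM4 of the 19, these 5 had an adjusted p from 0.0685 (XIRP1) to 0.0843 (SYNPO2L), and with only the 2 arms in the edgeR fit MEF2C had 0.0563 while the other 4 passed. Without day 7 the adjusted p was 0.0886 for SMYD1, 0.256 for KLHL41, 0.195 for FHOD3, 0.138 for MYOCD, 0.182 for HSPB7, 0.23 for NEXN, 0.195 for ALPK3 and 0.303 for RBM20. Their fitted differences without day 7 were still above 0, at 2.71 for SMYD1, 2.69 for KLHL41, 1.81 for FHOD3, 1.80 for MYOCD, 1.86 for HSPB7, 1.42 for NEXN, 1.04 for ALPK3 and 0.69 for RBM20. Without day 10 it was 0.0455 for SMYD1 and ran from 0.0876 (HSPB7) to 0.276 (KLHL41) for the other 7 of these, and without day 5 it ran from 0.0617 (HSPB7) to 0.16 (RBM20) for FHOD3, MYOCD, HSPB7, NEXN and RBM20. SYNPO2L, ALPK3 and RBM20 were named after their values were seen.

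In NP-IWP2 against NP-ctrl, edgeR called 0 of the 62 genes, while 26 had an unadjusted p under 0.05, DESeq2 called 4 and limma on log2(FPKM + 1) called 0. Over all 21206 genes edgeR called 2 higher and 2 lower, and 1009 had an unadjusted p under 0.05. Without day 3 edgeR called 4 of the 62. With only the 2 arms compared in each fit, edgeR called 11 of the 62 for NP-IWP2 and 4 for passaged cells against NP-ctrl, which turns the order of the arms by number of calls. The calls over all genes turned likewise, with 99 higher and 178 lower for NP-IWP2 and 46 higher and 63 lower for passaged cells. The turn is therefore not particular to the list. The median fitted difference of the list was 0.54, beside -0.01 over all genes. Passaged cells were higher than NP-IWP2 in 2 genes, SORBS2 (2.28, SE 0.34, adjusted p = 0.0117) and PALLD (1.11, SE 0.17, adjusted p = 0.0132), which encodes palladin, an actin crosslinker of the Z-disc. On day 10 SORBS2 was 5.10-fold (4.95 to 5.26) and PALLD 1.80-fold (1.74 to 1.86) above NP-IWP2. Without day 7 neither passed (adjusted p = 0.0802 and 0.119), without day 5 PALLD did not (0.0829), and without day 3 there were 7 genes called.

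**Figure D4:**
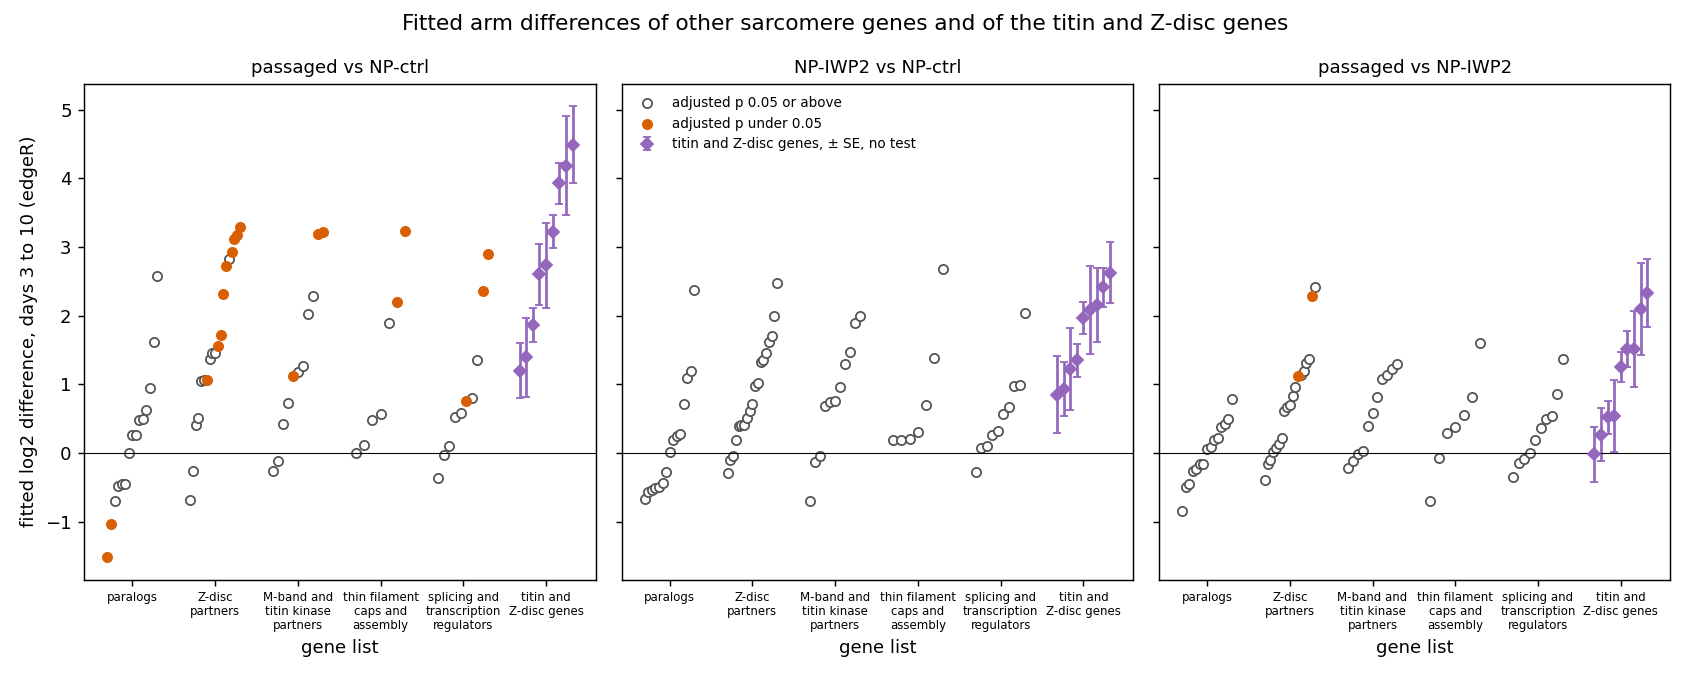
Fitted log2 differences over days 3 to 10 for the 62 other sarcomere genes, grouped by list, with orange for an adjusted p under 0.05 and open circles for the rest, and for the 9 titin and Z-disc genes (purple diamonds, with SE as error bars and no test) in the 3 comparisons. Against NP-ctrl, 19 genes pass in passaged cells and 0 in NP-IWP2 cells, and 2 pass between passaged and NP-IWP2, and with only the 2 arms in each fit these counts are 4, 11 and 3. Over all 21206 genes those 2-arm fits call 46 higher and 63 lower, 99 higher and 178 lower, and 59 higher and 104 lower.

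The relatives of the 9 genes were examined next, to see whether levels differed within families. Of 20 paralogs, 15 passed the filter, 0 were higher and 2 were lower in passaged than in NP-ctrl cells, namely PDLIM4 (-1.52, SE 0.27, adjusted p = 0.0109) and PDLIM2 (-1.03, SE 0.21, adjusted p = 0.02), both PDZ and LIM domain proteins. Over all genes 1.64% were higher and 2.76% lower, so 0 higher of 15 does not set the paralogs apart from other genes. Without day 7 the adjusted p was 0.109 for PDLIM4 and 0.187 for PDLIM2, and PDLIM2 was at 0.12 without day 10 and 0.0647 without day 5. The median of the 15 was 0.26.

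Of the myosin-binding protein C family, MYBPC3 was the member with the high level. MYBPC1, MYBPC2 and MYBPH stayed at or under 0.51 FPKM in all libraries, and MYBPHL reached 1.16 FPKM, in NP-IWP2 on day 7. Nebulin (NEB), the long skeletal relative of NEBL, was between 0.11 and 0.28 FPKM in every library. LASP1, the widespread short relative, was higher than NEBL in NP-ctrl on day 10 (38.8 against 26.8 FPKM) and lower in passaged cells (12.2 against 142 FPKM).

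The myomesin relatives MYOM2 and MYOM3 stayed low, MYOM2 at 2.04 FPKM in NP-ctrl, 3.20 FPKM in NP-IWP2 cells and 0.57 FPKM in passaged cells on day 10, an order unlike that of MYOM1, and MYOM3 at or under 0.06 FPKM throughout. MYOZ1 reached 5.91 FPKM and MYOZ3 was at 1.75 FPKM in passaged cells on day 10, against 77.5 FPKM for MYOZ2. CSRP2, a LIM protein of smooth muscle and many other cells, was above CSRP3 in NP-ctrl (79.5 against 4.46 FPKM) and below it in passaged cells (32.8 against 52.2 FPKM) on day 10, while CSRP1 was at 14.6 FPKM in NP-ctrl, 9.42 FPKM in NP-IWP2 cells and 19.9 FPKM in passaged cells.

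Among relatives of LDB3, PDLIM5 was the most abundant on day 10 in NP-IWP2 and passaged cells but not in NP-ctrl, at 23.8 FPKM in NP-ctrl, 75.1 FPKM in NP-IWP2 cells and 119 FPKM in passaged cells (fitted 1.61 for passaged against NP-ctrl, adjusted p = 0.051). PDLIM7 was at 32.9, 12.4 and 9.90 FPKM, PDLIM1 at 24.9, 17.2 and 13.8 FPKM, and PDLIM3 at 2.29, 5.94 and 2.4 FPKM. OBSL1, a cytoskeletal linker protein, stood at 32.7, 38.2 and 48.0 FPKM, and its difference between passaged and NP-ctrl cells did not pass the test (adjusted p = 0.544).

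The RNA levels of cell type markers also differed between the arms. The 6 cardiomyocyte markers had a median ratio (taken on the log scale) of passaged to NP-ctrl of 6.22 on day 10 (2.54 for TNNT2 to 10.4 for ACTC1), beside a median of 7.24 (4.65 to 11.7) for the 9 genes. In that comparison 3 of the 9 lay above every marker and 0 lay below every marker. Passaged to NP-IWP2 the medians were 1.94 for the markers and 2.02 for the 9 genes, with 5 of 9 above the marker median. Here 1 lay above every marker and 2 lay below every marker. NP-IWP2 to NP-ctrl the medians were 3.20 and 3.73, with 7 of 9 above the marker median, 6 above every marker and 0 below every marker. Since arm differences were used to choose the 9 genes, these counts describe them only.

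On day 5 the lists stood further apart, with a median ratio of passaged to NP-IWP2 of 0.851 for the markers (0.424 for MYL7 to 9.13 for MYH6) and 3.53 for the 9 genes (0.515 to 26.2). MYH6, the atrial myosin heavy chain, was the marker with a day 5 pattern like that of MYBPC3 and CSRP3, at 1.98 FPKM in NP-ctrl, 13.1 FPKM in NP-IWP2 cells and 120 FPKM in passaged cells. The other 5 markers lay between 0.424 and 1.37 times their NP-IWP2 level that day. How far the number of cardiomyocytes accounts for the member levels was not tested.

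**Figure D5:**
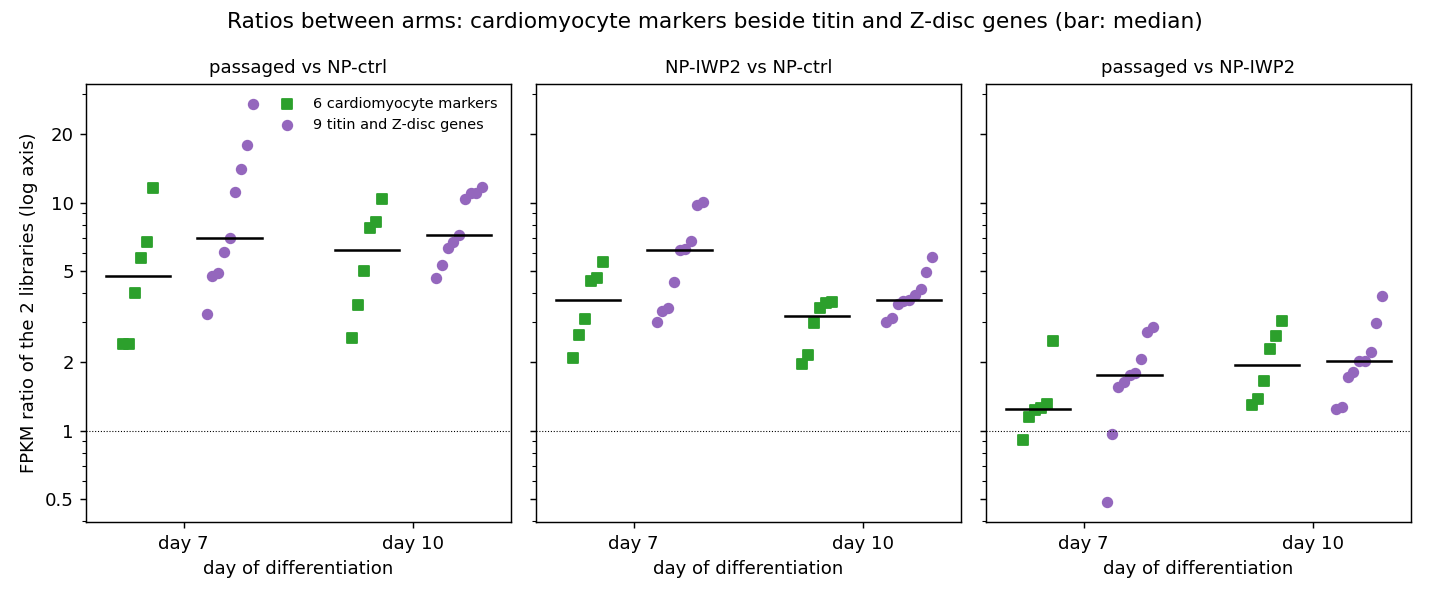
Ratio of FPKM between 2 arms on a log axis for the 6 cardiomyocyte markers (green squares) and the 9 titin and Z-disc genes (purple circles) on days 7 and 10, with bars at the medians and a dotted line at equality. On day 10 both lists lie above equality in all 3 comparisons and their ranges overlap in each.

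Markers of fibroblast and hepatic cells were lower in passaged cells. The 6 epicardial and fibroblast markers summed to 3302 FPKM in NP-ctrl, 988 FPKM in NP-IWP2 cells and 87.6 FPKM in passaged cells on day 10, where TCF21 was at 0 in passaged cells, and over all later libraries of days 5 to 10 the sums ran from 1345 to 3302 FPKM in NP-ctrl, 878 to 1053 FPKM in NP-IWP2 cells and 87.6 to 407 FPKM in passaged cells. On day 10 most of the sum in each arm was collagen (COL1A1 and COL3A1). All 6 genes were lowest in passaged cells on day 10, but TBX18 (40.6, 65.1 and 0.08 FPKM) and PDGFRA (22.0, 43.3 and 5.75 FPKM) were higher in NP-IWP2 than in NP-ctrl. The 5 hepatic markers summed to 2962, 863 and 0.43 FPKM on day 10, with APOA2 and FOXA2 at 0 in passaged cells. The 5 endothelial markers summed to 119, 118 and 121 FPKM on day 10, but 3, 4 and 1 of them were at 1 FPKM or above, and KDR alone gave 93.0, 100.4 and 119 FPKM. On days 3, 5 and 7 the endothelial sum was lowest in passaged cells, at 42.3, 17.1 and 31.6 FPKM. It was then 104, 120 and 164 FPKM in NP-ctrl and 93.2, 101 and 111 FPKM in NP-IWP2 cells. The 6 smooth muscle markers summed to 118, 79.4 and 75.1 FPKM on day 10. Of this, DES gave 80.9, 47.2 and 19.7 FPKM and CNN1, in another order, 10.9, 8.84 and 28.3 FPKM. On days 3, 5 and 7, by contrast, the smooth muscle sum was highest after passaging, at 31.4, 38.3 and 131 FPKM. NP-ctrl then stood at 29.2, 24.7 and 65.1 FPKM, and NP-IWP2 at 23.7, 25.3 and 86.9 FPKM. The part of these cell types in the arm differences was not tested.

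Skeletal muscle also uses titin, TCAP and CSRP3, so its markers were read beside the set. The 12 skeletal markers summed to 17.4, 69.7 and 225 FPKM on day 10, nearly all of it CKM (189 FPKM in passaged cells) and ACTA1 (34.7 FPKM in passaged cells), which heart muscle also expresses. MYOD1 and MYF5 were at 0 in all 3 arms on day 10, MYOG was at or under 0.25 FPKM, and MYH1, MYH2 and MYH8 were at or under 0.01 FPKM. MYH3, the embryonic skeletal myosin, was detected in every library and stood at 0.37, 0.36 and 0.91 FPKM on day 10, and MYF6, PAX7 and MYL1 were at or under 0.39 FPKM. In the passaged library of that day TCAP, CSRP3 and TTN were at 16.6, 52.2 and 32.0 FPKM.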

How the data were processed

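Bulk RNA of 15 libraries was analysed, grouped by the labels of the samples. Per the labels and the study's methods, the authors trimmed reads with cutadapt (1.9.1), aligned them to hg38 with HISAT2 (2.0.1) and counted them per gene with HTSeq (0.6.1), and DESeq2 was named for their tests. The deposited counts are raw whole numbers, and the deposited FPKM are these counts scaled by exonic length and total count (recomputed values differed by at most 0.005). The library kit named is one for long reads while the tools are for short reads, which was not resolved, so levels per length carry that doubt. The strand setting is not given in the sources used here. Every row carried an Ensembl gene identifier, and 0 columns belonged to other series. Of the rows, 20014 had no gene symbol in the count table, and 19913 of these were named from their identifier. The remaining columns hold gene annotation.

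Positions are those of the table (8 of 9 genes were identical in GENCODE release 44, and LDB3 was not). Ratios of FPKM used exact Clopper-Pearson 95% intervals and a floor of 3 counts. Differences on log2(FPKM + 1) of at least 1 were counted. The 12 libraries of days 3 to 10 were fitted with edgeR 4.0.16 (quasi-likelihood, TMM, arm and day; SE from the fitted difference and the F statistic) in R 4.3.3, over 21206 genes with FPKM of at least 1 in a library, with Benjamini-Hochberg adjusted p under 0.05 as the threshold, and the p-values measure only the spread of arm differences between days of what may be 1 series of cultures. The scripts were tested on simulated data. DESeq2 1.42.0, limma 3.58.1, other scaling, filters and days were alternatives.

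The 9 genes, the gene lists, the rules and the tests were chosen with earlier results of these data known. Named genes were the 9, genes overlapping them (TTN-AS1 is given, as the others had few counts or a short overlap), all paralogs, from each other list and comparison at most 2 called genes in each direction with the lowest adjusted p and the 3 most abundant in passaged cells on day 10, genes with the most similar pattern, and marker lists. CEFIP was matched as C10orf71. Some genes that these rules name are not reported here.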

Additional observations from a re-analysis of the deposited data

Results flagged for a closer look

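MYOZ2 was set apart because its difference between passaged and NP-IWP2 cells changed sign between days. On the log2(FPKM + 1) scale it was -1.001 on day 7, with 17.0 FPKM in passaged and 35.0 FPKM in NP-IWP2 cells, and 0.83 on day 10, with 77.5 and 43.1 FPKM. Each day has 1 library per arm, so the difference between days was not tested.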

How the results depend on the processing

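With 1 library per arm and day, the days are the only repetition, and low counts (TCAP) limit single ratios. Sarcomere list genes called in passaged against NP-ctrl cells were 19, but 31 by DESeq2, 2 by limma, 35 with no filter (74 genes tested), 4 with only the 2 arms in the fit, and 35, 12, 5 and 8 without days 3, 5, 7 and 10. For NP-IWP2 against NP-ctrl they were 0, but 4 by DESeq2, 17 with no filter, 11 with the 2 arms and 4 without day 3. For passaged against NP-IWP2 they were 2, but 8 by DESeq2, 0 by limma, 17 with no filter, and 7, 1 and 0 without days 3, 5 and 7. The calls over all genes moved too. With the 2 arms in the fit they were 46 higher and 63 lower for passaged against NP-ctrl. For NP-IWP2 against NP-ctrl they were then 99 higher and 178 lower. The cause was not tested. The median of the 9 genes on day 10 for passaged against NP-ctrl was 2.56 in TPM, which moved the median of all genes to -0.38, and 3.00 with median-of-ratios size factors, and for passaged against NP-IWP2 it was 1.09 with the latter. Genes at onset by day 5 were 2, 0 and 0 in NP-ctrl at limits of 5%, 25% and 50% of the highest level, 3, 1 and 0 in NP-IWP2 and 6, 1 and 0 in passaged cells. Of the single-gene values, 279 kept direction and side or stayed within error, 71 were weaker, 53 moved and 2 reversed, namely MYOZ2 between passaged and NP-IWP2 cells, at 0.0400 without day 5 and 0.51 without day 7. Day was a block in every fit. Beyond that, no paired analysis was possible because the labels give no replicate numbers.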

Other observations

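Among those of 11503 other genes (highest FPKM 5 or above) whose log2(FPKM + 1) over the 15 libraries was most like the mean z-score of the 9 genes were SLC8A1, the cardiac sodium-calcium exchanger (Pearson correlation 0.987), PPARGC1A (0.986), FHOD3 (0.986), HSPB7 (0.983), HACD1 (0.982), REEP3 (0.981) and MAP3K20 (0.981). These values describe shared time courses of the same libraries and carry no test. On day 10 SLC8A1 was at 7.01 FPKM in NP-ctrl, 51.0 FPKM in NP-IWP2 and 52.1 FPKM in passaged cells, and PPARGC1A, a coactivator of mitochondrial genes, at 2.47, 13.8 and 20.2 FPKM.

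Single genes had their own nearest neighbours, STYXL2 for TTN (0.976), EMC10 for MYBPC3 (0.985), TRIM55 for NEBL (0.983), MASP1 for MYOM1 (0.993), FAM78A for TCAP (0.972), SLC25A12 for CSRP3 (0.989) and SLC8A1 for MYOZ2 (0.990), while LDB3 and SMPX were nearest to each other. Pairs within the set ran from 0.711 for NEBL and TCAP to 0.995 for LDB3 and SMPX, and the 4 lowest pairs all held NEBL.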
